A study of Homo sapiens with 12 samples.

Results

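H3K9me1, the monomethylated form of lysine 9 of histone H3, was followed over the 4 HOX gene clusters of HCT116 cells, an established human colorectal carcinoma line. The members were the listed H3K9me1 regions that share at least 1 bp with 4 windows set in build hg19, namely HOXA at chr7:27120001-27260000, HOXB at chr17:46600001-46820000, HOXC at chr12:54320001-54460000 and HOXD at chr2:176940001-177060000. They numbered 741 of 2264195 regions, 239 and 241 in the control libraries A and B and 73 and 188 in the methionine-restricted libraries A and B. Control cells (0 hr) came from RPMI-1640 medium with fetal bovine serum. Restricted cells were washed and then kept for 24 hr in methionine-free RPMI-1640 with the same serum. All cells were of 1 line. No control was taken at 24 hr, and the effects of the medium and of the added day cannot be told apart. Each condition had 2 H3K9me1 libraries, and whether these were separate cultures is not stated, so p-values measure only the spread between libraries, which may be technical.

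HOX genes encode homeodomain transcription factors that give cells their position along the body axis. Within a cluster they lie in the order in which they are used, from the low-numbered genes of the head end to the high-numbered genes of the tail end, and differentiated cells keep large parts of the clusters silent, chiefly through Polycomb and H3K27 methylation. H3K9me1 is the first step of methylation of its residue and a substrate for the enzymes that make H3K9me2 and H3K9me3. The methyl groups come from S-adenosylmethionine, which cells make from methionine. The 38 HOX genes considered here, 10 each in HOXA and HOXB and 9 each in HOXC and HOXD, were all matched in RefSeq (GRCh38.p14), which was used only for their order. From low to high coordinates HOXA runs from HOXA2 to HOXA13 and HOXB from HOXB1, a gene of hindbrain patterning, through HOXB9 to HOXB13, a gene of the prostate and distal colon, with PRAC1 and PRAC2 before HOXB13. HOXC runs the other way, from HOXC13, a gene of hair and nail, through HOXC8 to HOXC6, HOXC5 and HOXC4, which share a start in that table, and HOXD from HOXD13, a gene of digits and genital tract, to HOXD1. No annotation of hg19 was used, so values are given per cluster and per stretch of a cluster, not per gene.

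The H3K9me1 libraries held 30952210 to 39452512 reads and their inputs 23523460 to 27843707, per the file headers. The authors' caller kept weak regions (p cutoff 0.1), and the region values are its averages over a region. On chromosomes 1, 2, 6, 7, 10, 12, 16 and 17, listed in all 4 libraries, regions covered 12.4% and 15.1% of the sequence in control A and B but 5.72% and 14.8% in restricted A and B. Relative density below is the share of a window under regions divided by this library-wide share, so 1 is the mean of these 8 chromosomes. In control B these 8 chromosomes held 383762 of 454516 listed regions, against 330926 of 661085 in control A. The total of 2264195 regions thus pools lists with unlike shares outside these chromosomes. Restricted A had the most reads and the smallest covered share, and each value for the clusters is therefore given for every library.

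In control cells HOXB, HOXC and HOXD were richer in H3K9me1 than the mean of the 8 chromosomes, and HOXA lay on either side of it. HOXB had a relative density of 1.94 in control A and 1.496 in control B (1.72 ± 0.312, SD, n = 2), from 94 and 78 regions covering 24.1% and 22.7% of the window. HOXD had 1.78 and 1.34 (1.56 ± 0.311, SD, n = 2) and HOXC 1.55 and 1.38 (1.46 ± 0.115, SD, n = 2). HOXA had 0.877 and 1.47 (1.18 ± 0.422, SD, n = 2). The order of HOXB, HOXD and HOXC was smaller than the spread between the 2 controls. For comparison, the median of 8618 other windows of 140 kb was 1.08 in control A and 1.07 in control B, and their 90th percentiles were 1.81 and 1.76. HOXB lay above 93.8% and 75.3% of these windows and HOXD above 89.2% and 64.9%, while HOXA lay above 39.5% and 73.7%.

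After restriction HOXA, HOXB and HOXC each had a lower relative density in both restricted libraries than in either control, and HOXD did not. HOXB had 1.01 in restricted A and 0.760 in restricted B (0.884 ± 0.176, SD, n = 2), about the same ratio to control within each sequencing lane (0.521 for the A libraries and 0.508 for the B libraries). Pairing by lane rests on the letters and lanes only, and over windows the deviations of libraries with the same letter correlated at -0.11. HOXC had 0.338 and 1.095 (0.717 ± 0.536, SD, n = 2), with within-lane ratios of 0.219 and 0.792, so restricted A was far below the other 3 libraries. HOXA had 0.574 and 0.675 (0.624 ± 0.0713, SD, n = 2), with within-lane ratios of 0.654 and 0.458. HOXD had 1.43 and 1.68 (1.55 ± 0.180, SD, n = 2), values that lay between those of the 2 controls, and its within-lane ratios fell on either side of 1, at 0.802 and 1.26. Over the 4 clusters together the controls had 1.58 and 1.43 and the restricted libraries 0.840 and 0.995.

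**Figure D1:**
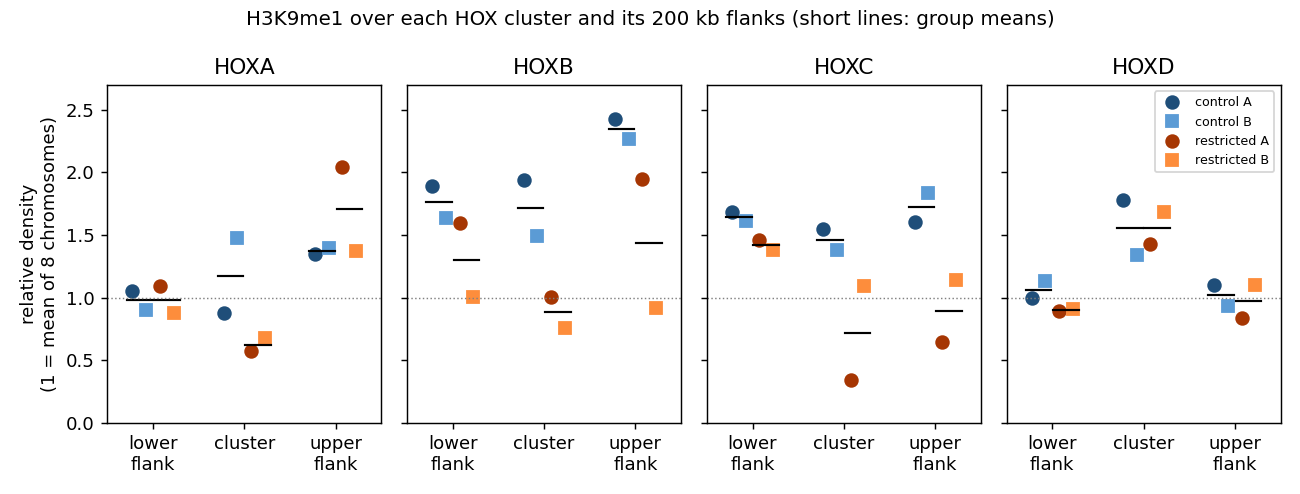
Relative density of H3K9me1 (vertical axis, covered share over the mean of 8 chromosomes) in each HOX cluster and in the 200 kb on either side; each point is 1 library and short lines are group means. Both restricted points lie below both control points over HOXA, HOXB and HOXC, while over HOXD the restricted points (1.43 and 1.68) lie within the range of the controls (1.34 to 1.78).

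None of these differences passed the test across windows, which on simulated data called 0% of changes of log2 1. The 4 clusters were fitted with limma together with all windows of the 8 chromosomes on log2(relative density + 0.1), a scale that understates changes of sparse windows. Of 8632 windows 0% were called at an adjusted p under 0.05, and none of the 4 clusters, although 2012 windows and 3 clusters had an unadjusted p under 0.05. The log2 difference, restricted minus control, was -0.89 for HOXB (SE 0.26, adjusted p = 0.124), -1.11 for HOXC (SE 0.44, adjusted p = 0.194), -0.78 for HOXA (SE 0.29, adjusted p = 0.175) and 0.01 for HOXD (SE 0.27, adjusted p = 0.994), against a median of 0.10 over all windows. When only regions with a fold of at least 2 were kept, the value was -2.04 for HOXA, -0.08 for HOXB, -0.72 for HOXC and -0.996 for HOXD, and without scaling to the library it was -0.52 for HOXD, while the median of all windows was then -0.40. In single comparisons the exact two-sided permutation p was 0.333 for HOXA, HOXB and HOXC, the smallest that 2 against 2 libraries allow, and 1 for HOXD.

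The calls depended on the restricted libraries. Without restricted B, limma called HOXA (log2 difference -0.88, adjusted p = 0.00655), HOXB (-0.70, adjusted p = 0.0121) and HOXC (-1.83, adjusted p = 2.21e-10), together with 2256 windows in all. Without restricted A it called HOXB (-1.07, adjusted p = 0.000437) among 966 windows. In these fits the lone restricted library is assumed to vary like the controls. HOXB was called in both of these fits and HOXD in neither, and no cluster was called when either control was left out.

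A lower density in both restricted libraries was common outside the clusters too. Of all 8632 windows 20.9% were separated in this direction, beside 3 of the 4 clusters. When the 8618 other windows were split into 4 groups of equal size by their mean over all 4 libraries, the share was 1.72% in group 1, the poorest in H3K9me1, 10.9% in group 2, 35.0% in group 3 and 35.7% in group 4. By the same limits HOXA and HOXC belonged to group 2, where the median log2 difference was 0.20. HOXB belonged to group 3 (median -0.12) and HOXD to group 4 (median -0.16). The log2 differences of HOXA, HOXB and HOXC were below the median of their group, and that of HOXD was above it. The mean that set the groups includes the restricted libraries, so low restricted values themselves move a cluster to a lower group. The control mean of HOXA (1.18) lay within the limits of group 3. Those of HOXB (1.72) and HOXC (1.46) lay within the limits of group 4.

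**Figure D2:**
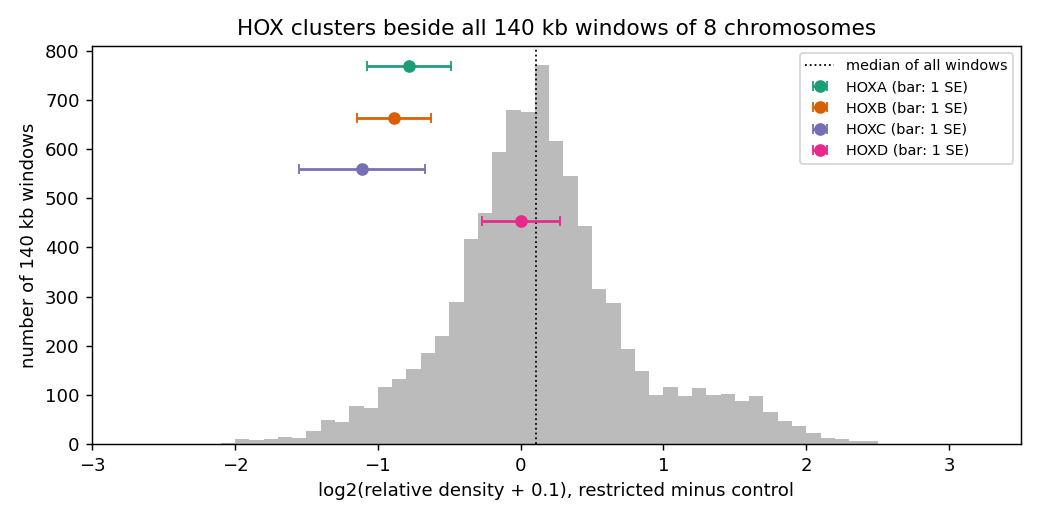
Log2 difference in relative density (horizontal axis, restricted minus control) of the 4 HOX clusters (coloured points with bars of 1 SE, their height has no meaning) above the histogram of the other 140 kb windows (vertical axis, number of windows; dotted line, their median). HOXA (-0.78), HOXB (-0.89) and HOXC (-1.11) lie on the left side of the histogram and HOXD (0.01) near its centre.

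The 200 kb on each side of the clusters showed how local these values were. Around HOXB both flanks also had lower densities in both restricted libraries. The lower flank, on the side of SKAP1, had 1.89 and 1.64 in the controls against 1.59 and 1.01, and the upper flank, on the side of TTLL6, had 2.43 and 2.27 against 1.95 and 0.917. HOXB divided by the mean of its flanks was 0.897 and 0.765 in the controls against 0.569 and 0.790, so the groups overlapped. Around HOXC, which lies between CALCOCO1 and SMUG1, the lower flank had 1.68 and 1.61 against 1.46 and 1.38, and the upper flank 1.61 and 1.83 against 0.647 and 1.14. Here too both flanks were lower in both restricted libraries. The ratio of HOXC to its flanks was 0.940 and 0.802 in the controls against 0.320 and 0.870, and only restricted A was below the controls.

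Around HOXA the flanks did not share the lower values of the cluster. Its lower flank, on the side of SKAP2, had 1.05 and 0.902 in the controls against 1.09 and 0.875, and its upper flank, on the side of EVX1, had 1.35 and 1.396 against 2.05 and 1.37. Neither flank was lower in both restricted libraries, whereas the ratio of HOXA to its flanks was 0.729 and 1.28 in the controls against 0.366 and 0.601. HOXA was the 1 cluster of 4 in which this ratio was lower in both restricted libraries. Of 8597 windows measured against their own flanks 19.1% were lower in the same way, so 1 of 4 is near the share among windows at large. HOXD was richer than its flanks in every library, with ratios of 1.70 and 1.29 in the controls against 1.65 and 1.67. Its lower flank, on the side of EVX2, had 0.993 and 1.13 against 0.892 and 0.907, lower in both restricted libraries, and its upper flank, on the side of MTX2, had 1.099 and 0.935 against 0.840 and 1.102, which overlap.

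In limma's fit of the cluster over its flanks 0% of the 8597 windows were called, and 631 had an unadjusted p under 0.05. On simulated data this fit called 0% of changes of log2 1 or 2. The log2 difference was -0.94 for HOXA (SE 0.39, adjusted p = 0.654), -0.27 for HOXB (SE 0.33, adjusted p = 0.842), -0.60 for HOXC (SE 0.41, adjusted p = 0.716) and 0.15 for HOXD (SE 0.28, adjusted p = 0.911). Without restricted B, which leaves 1 restricted library, it was -1.27 for HOXA, -0.50 for HOXB, -1.21 for HOXC and 0.13 for HOXD. With only regions of a fold of at least 2 the HOXA value was -2.21 and the HOXD value -0.69. With 100 kb flanks the HOXB value turned to 0.28, and without restricted A the HOXC value was 0.01.

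Within the clusters H3K9me1 was uneven, and tiles of 20 kb showed where it was scarce. Towards the middle of HOXB the tile chr17:46680001-46700000 was nearly empty in all 4 libraries, with 1 region in each control, none in restricted A and 1 in restricted B (relative density 0.107, 0.104, 0 and 0.212). Its neighbours on both sides held 5 to 12 regions in the controls. HOXA was sparse over its middle, lowest at chr7:27200001-27220000 with 0.313 and 0.343 in the controls against 0 and 0.377. In HOXC the tile with the lowest control mean was chr12:54380001-54400000, with 0.930 and 0.461 in the controls against 0.307 and 0.766. It was the lowest HOXC tile in control B only. In HOXD the tile with the lowest control mean, chr2:177020001-177040000, had 0.779 and 1.25 in the controls against 3.02 and 1.17.

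The tile richest in control cells lay on the HOXA13 side of HOXA, on the HOXB13 side of HOXB, on the HOXC13 side of HOXC and inside HOXD. At the upper end of HOXA, chr7:27240001-27260000 had 1.56 and 2.71 in the controls, from 11 and 10 regions, and 0 and 0.424 in the restricted libraries, from 0 and 5 regions (log2 difference -3.24, SE 0.92, adjusted p = 0.519). At the lower end of HOXC, chr12:54320001-54340000 had 2.93 and 1.80 against 0 and 1.75 (log2 difference -2.48, SE 1.11, adjusted p = 0.519). In HOXB the richest control tile, chr17:46780001-46800000, had 2.24 and 2.53 against 1.33 and 1.13. In HOXD, chr2:177000001-177020000 had 3.31 and 2.07 in the controls against 0 and 2.33. Restricted A was at 0 in 3 of these 4 tiles, and in all it was at 0 in 7 of the 31 HOX tiles, beside 8.02% of the tiles tested on the 8 chromosomes. No other library had a HOX tile at 0.

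In HOXB the lower values ran along most of the cluster. Of its 11 tiles 8 had both restricted libraries below both controls, and the widest gap was on the HOXB1 side, at chr17:46620001-46640000, with 2.62 and 1.78 in the controls against 0.333 and 0.445 (log2 difference -2.22, SE 0.60, adjusted p = 0.519). Outside these 8 were the nearly empty tile and 2 towards HOXB13, one of which, chr17:46760001-46780000, held the highest density of any HOX tile. That value, 3.65, was in restricted A, and the tile had 1.38 in restricted B and 2.54 and 0.784 in the controls. HOXC had 4 such tiles of 7, HOXA 1 of 7 and HOXD none of 6. In all 13 of 31 HOX tiles were lower in both restricted libraries, beside 18.5% of 59938 tiles tested, and 0 of 31 were higher in both, beside 24.2%. These shares are over tiles of every density. Among the 140 kb windows both shares depended on density. The share lower in both was 1.72%, 10.9%, 35.0% and 35.7% in groups 1 to 4, and the share higher in both was 73.4%, 42.7%, 16.2% and 6.08%. By limma 0% of the tiles were called, 5760 of them and 8 HOX tiles having an unadjusted p under 0.05. Without restricted B, 4 HOX tiles and 2342 tiles in all were called. The median log2 difference was -0.90 over the HOX tiles and 0.06 over all tiles.

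**Figure D3:**
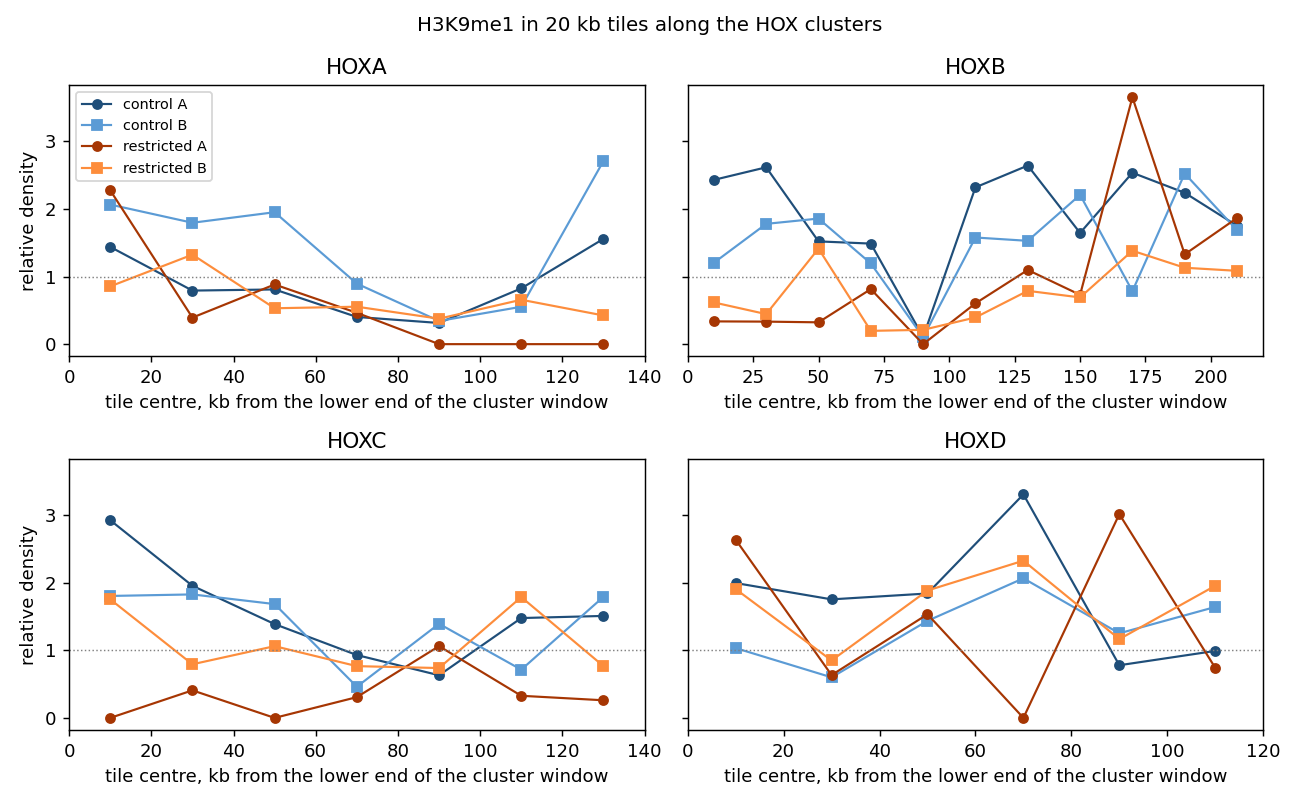
Relative density of H3K9me1 in consecutive 20 kb tiles (vertical axis) by distance from the lower end of each cluster window (horizontal axis, kb), 1 line per library. The tile centred at 90 kb of HOXB is near 0 in all 4 libraries, and 8 of the 11 HOXB tiles have both restricted lines below both control lines; in HOXD the lines cross.

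The single regions were short and weak, and those in the HOX clusters resembled the rest. Their median width was 391 and 427 bp in the controls against 373 and 417 bp after restriction, beside 372, 386, 324 and 377 bp over the 8 chromosomes. Their median fold enrichment over the local background, as the authors' caller gave it, was 1.95 and 1.81 in the controls against 1.86 and 1.89. Only 8, 3, 0 and 1 of them, in the same order, had a −log10 p of at least 2, that is 3.35%, 1.24%, 0% and 0.532% of them beside 4.28%, 0.858%, 0.667% and 0.884% over the 8 chromosomes. The highest was 2.94 in control A, within HOXA. HOXA held 44 and 54 regions in the controls against 9 and 33, and HOXC 53 and 60 against 10 and 49. HOXD held 48 and 49 against 24 and 46.

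Few bases recurred. The share of bases covered in all 4 libraries was 0% in HOXA and HOXC, 0.0182% in HOXB and 0.306% in HOXD, beside 0.142% on the 8 chromosomes. When regions that overlap in a chain were merged, the clusters held 403 merged regions, of which 22 (5.46%) had a region from each of the 4 libraries, beside 4.64% on the 8 chromosomes. HOXB had 9 of them, HOXD 8, HOXC 4 and HOXA 1. Merged regions of both controls and neither restricted library numbered 42 (10.4%, beside 5.87% on the 8 chromosomes), with 19 in HOXB, 11 in HOXA, 7 in HOXC and 5 in HOXD. The reverse pattern was found in 2 (0.496%, beside 2.61%), both in HOXD. Restricted A covers the smallest share of the sequence, and its part in these counts was not tested. Of the bases covered in either restricted library, 1.69% in HOXC and 4.03% in HOXB were covered in both, beside 7.78% on the 8 chromosomes. The share was 8.11% in HOXD and 7.80% in HOXA. For the 2 controls it was 13.04% to 21.1% in the 4 clusters, beside 14.5%.

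The widest merged region of each cluster with a region from each library is given as an example. Within none of these 4 was any base covered in all 4 libraries. In HOXD it was chr2:176980856-176983546, with 1.35 and 1.45 kb under regions in the controls against 0.622 and 1.80 kb, and a fold of 1.86 to 2.18. In HOXB it was chr17:46789953-46792700, with 1.08 and 2.58 kb in the controls against 0.119 and 0.532 kb. In HOXC, chr12:54435526-54437886 had 0.773 and 0.217 kb in the controls, less in restricted A, and 2.36 kb in restricted B. In HOXA the only such region began 12.7 kb from the lower end of the window, with 1.23 and 1.497 kb in the controls against 0.718 and 1.16 kb. In each of the 4 regions restricted A had the shortest stretch.

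**Figure D4:**
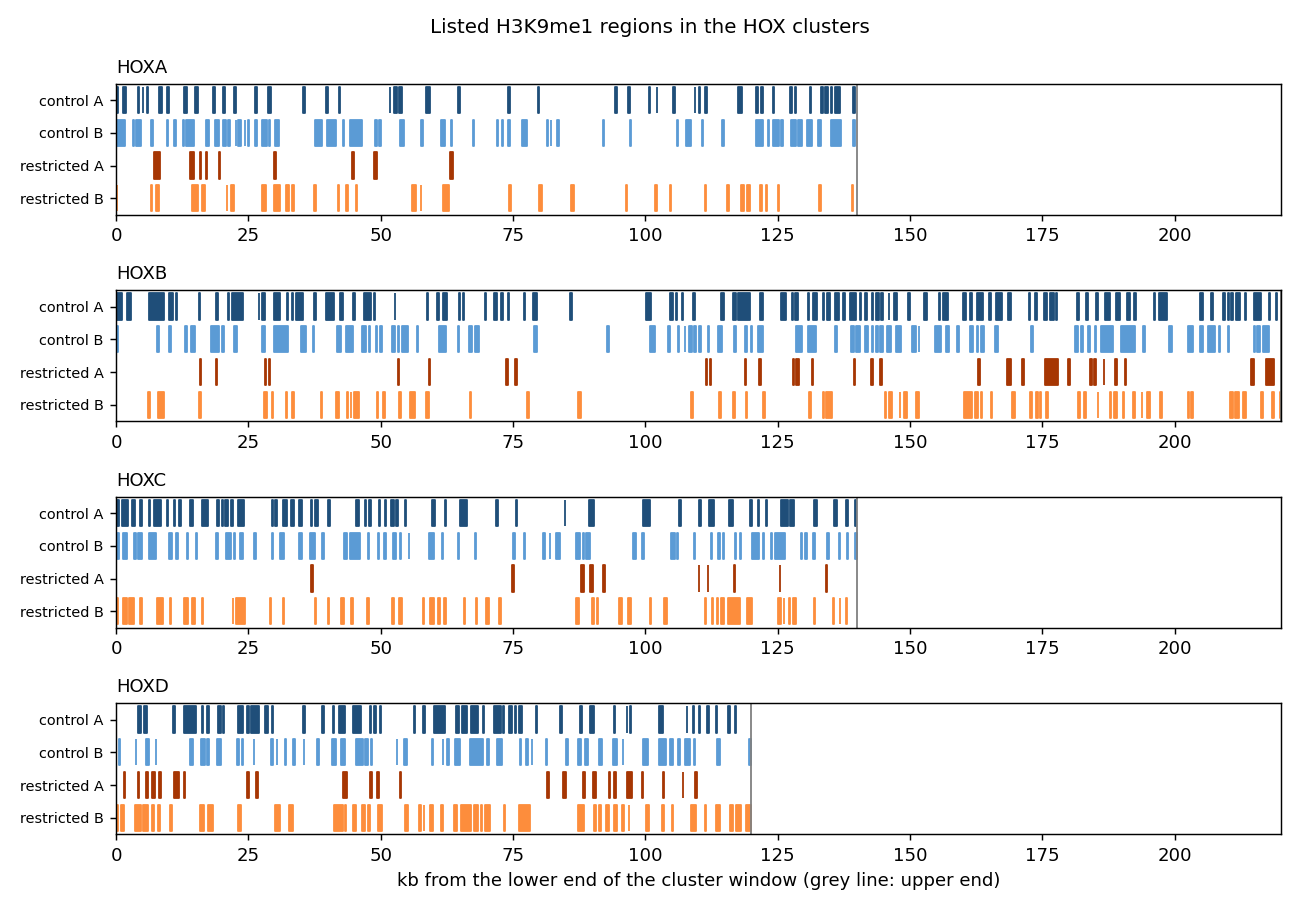
Listed H3K9me1 regions (coloured blocks) in the 4 HOX clusters, 1 row per library, by distance from the lower end of the cluster window in kb; the grey line marks the upper end. Restricted A has the fewest regions in each cluster (9, 30, 10 and 24 in HOXA, HOXB, HOXC and HOXD), and the upper end of HOXA and the lower end of HOXC are empty in it.

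H3K9me3, the mark of constitutive heterochromatin measured in the same study, had no peak in any of the 4 clusters in any of its 4 libraries. Their 200 kb flanks held 1 peak, of 642 bp, on the lower side of HOXA in restricted A. It had a fold of 4.15 and a −log10 p of 7.43, above the highest of any HOX H3K9me1 region (2.94). The 2 marks were not compared at a common threshold. The number of H3K9me3 peaks elsewhere was not set beside these counts, so they do not show that the clusters are poorer in H3K9me3 than other sequence. Keratin genes, which encode the intermediate filaments of epithelia, form 2 clusters on the chromosomes of HOXC and HOXB. The type II keratin cluster, on the chromosome of HOXC, had relative densities of 1.76 and 1.75 in the controls against 0.595 and 1.27, with restricted A lowest, as in HOXC. The type I keratin cluster on the chromosome of HOXB had 0.860 and 0.957 against 0.579 and 0.908. The difference between HOX and keratin clusters was not tested.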

How the data were processed

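Reads were processed with Bowtie2 2.1.0, SAMtools 1.5 and MACS2 2.1.1.20160309 on build hg19, per the submitters' processing notes. Per the file headers, H3K9me1 regions were called for each library with the broad setting, using the matching input as background, with p cutoffs of 0.0001 (strong) and 0.1 (weak), at most 1 read per position, and the larger library scaled towards the smaller. Per the file headers, A libraries were on lane 2 and B libraries on lane 3. The deposited pileup is a signal (read coverage), the deposited p is a −log10 value and the deposited fold is a ratio of a region to its local background. The authors' values were used only to describe and filter regions. The 4 inputs enter here only through these calls.

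Chromosome lengths were the highest region end in any list. The covered share of each window was divided by that of the 8 chromosomes. Windows of 140 kb (each also against its 200 kb flanks) and tiles of 20 kb with a region in at least 2 libraries were tested across all features with limma 3.58.1 (eBayes with trend and robust, Benjamini-Hochberg) on log2(value + 0.1). Other windows overlapping the HOX or keratin windows or the HOX flanks were left out. Merged regions needed 1 shared bp.

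The members, windows and lists were chosen with earlier results of these data known, and the split of windows by mean density and the counts of merged regions after seeing the values. The keratin windows were set by hand. Tiles named are, per cluster, those with the highest and lowest control mean and the largest difference with both restricted libraries on 1 side of both controls, plus chr17:46760001-46780000, chosen after its values were seen. Regions named are the widest merged regions with a region from each of the 4 libraries. Alternatives tried were other pseudocounts, scalings, thresholds, region counts, tile and flank sizes, merging, no filter, quantile normalization, the letter fitted as a replicate block, and each library left out in turn. The fits were tested on simulated data with changes of log2 1, 2 and 4. The window fit called 0%, 21% and 85% of these, and the fit over flanks 0%, 0% and 94.5%. The tile fit called none of the changes tried, so that the absence of tile calls says nothing about change. For windows, the absence of calls says nothing about changes of about log2 1. For windows over flanks, it says nothing about changes of log2 1 or 2.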

Additional observations from a re-analysis of the deposited data

How the results depend on the processing

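HOXA, HOXB and HOXC had a lower relative density after restriction under each alternative run, with log2 differences from -2.04 to -0.53, -1.40 to -0.08 and -1.52 to -0.72, and without each library, but none was called unless a restricted library was left out. Merging regions within 100 bp left these differences as they were. Dropping the filter or fitting either block cannot move them, so these settings bear only on the p-values. The log2 differences without each library in turn ranged from -1.12 to -0.44 for HOXA, -1.07 to -0.70 for HOXB, -1.83 to -0.39 for HOXC and -0.19 to 0.20 for HOXD. Over the flanks they ranged from -1.32 to -0.57, -0.50 to -0.05, -1.21 to 0.0056 and -0.0383 to 0.33. HOXD, near 0, changed sign with a fold of at least 2 (-0.996), no scaling (-0.52), its own chromosome as reference (-0.0305) and region counts (-0.14), and over its flanks with a fold of at least 2 (-0.69). HOXB over its flanks turned to 0.28 with 100 kb flanks, and its density difference shrank to -0.08 with a fold of at least 2. The cause was not tested. No scaling moved the median of all windows to -0.40.

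Counts of calls without each library ranged from 0 to 3 for the clusters and 0 to 2256 for all windows, 0 to 2 and 0 to 972 over the flanks, and 0 to 4 and 0 to 2342 for tiles. Equal numbers of regions per library gave 561 windows and no cluster. The letter as a replicate block changed no call (HOXB -0.89, adjusted p = 0.130). Over windows the deviations of libraries with the same letter correlated at -0.11, and the crossed pairing, added after seeing the data, called 353 windows and no cluster. The HOX tiles held 0 to 8 regions in restricted A, which limits their precision.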

Other observations

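The contrast between HOXD and the other clusters was looked at after the values were seen. Log2(relative density + 0.1) of HOXD minus the mean of HOXA, HOXB and HOXC was 0.34 and -0.11 in the controls against 1.15 and 0.94. This value was thus higher in both restricted libraries than in either control, and in control B HOXD lay below the mean of the others. With only regions of a fold of at least 2, the log2 difference, restricted minus control, was -0.996 for HOXD. It was then -2.04 for HOXA, -0.08 for HOXB and -0.72 for HOXC, so HOXD no longer stood apart. Among the 8618 other windows HOXD ranked above 78.7% in restricted A and 97.1% in restricted B. HOXB ranked above 52.4% and 22.8%, HOXC above 7.15% and 52.9% and HOXA above 21.5% and 17.3%.

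The lower and upper parts of the 4 clusters are given beside each other. Over the 3 lowest tiles of HOXA, the mean density was 1.01 and 1.94 in the controls against 1.18 and 0.903, and over the 3 highest, on the HOXA13 side, it was 0.899 and 1.2022 against 0 and 0.486. In HOXB the 5 lowest tiles, on the HOXB1 side, had 1.63 and 1.23 against 0.361 and 0.577, and the 5 highest, towards HOXB13, 2.16 and 1.75 against 1.73 and 1.02. In HOXC the 3 lowest tiles, on the HOXC13 side, had 2.09 and 1.77 against 0.136 and 1.203, and the 3 highest had 1.21 and 1.299 against 0.550 and 1.097. In HOXD the 3 lowest, on the HOXD13 side, had 1.86 and 1.02 against 1.60 and 1.55, and the 3 highest 1.69 and 1.65 against 1.25 and 1.82. Both restricted libraries lay below both controls on the HOXA13 side of HOXA and in both parts of HOXB and of HOXC, and in neither part of HOXD. In the upper part of HOXB this rested on 1.735 in restricted A against 1.747 in control B. The share for other stretches of this size was not computed. Among all 140 kb windows 20.9% were lower in both restricted libraries, and 35.0% and 35.7% in density groups 3 and 4, so such separations are common. The difference between the parts of a cluster was not tested.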
